A study of Mus musculus with 18 samples.

Results

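The 12 libraries described here form a 2 by 2 design in fibroblasts sorted from the synovium of naive mouse paws: unstimulated cells, cells given fibroblast growth factor 2 (FGF2), cells given osteopontin (OPN), and cells given both. They are 12 of 18 libraries in the series, chosen by their labels alone, with 3 libraries in each of the 4 groups. The genotype label of all 4 groups is WT, FGF2 was given at 10 ng/mL, OPN at 50 ng/mL, and stimulation lasted 3 days. The other 6 libraries came from mice with serum-induced arthritis, where FGF2 was not given, and were used only in an alternative fit. Nothing in the labels ties a replicate to its own mouse or culture, so p-values measure only the spread between these libraries, which may be technical. The sources used here give neither the sorting markers, nor the age of the mice, nor how long unstimulated cells were cultured.

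FGF2 is a mitogen that binds FGF receptors and drives the RAS-ERK kinase cascade, which induces immediate early transcription factors, cyclin D and a set of feedback inhibitors. OPN, encoded by Spp1, is a secreted phosphoprotein that binds integrins of the alpha v family and CD44, and it is abundant in bone and in inflamed joints. Growth factor receptors and integrins are known to share downstream kinases.

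The question the 4 groups answer is whether OPN had the same effect with FGF2 as without it. For each gene the interaction was the log2 difference between joint and FGF2 cells minus the log2 difference between OPN and unstimulated cells. A value of 0 means that the effects add on the log2 scale, and the additive level of a gene is the level in CPM (counts scaled by library size) that joint cells would then have had. A positive interaction places the joint level above the additive level and a negative one below it. A gene counted as called when its p in edgeR's quasi-likelihood test, adjusted by Benjamini and Hochberg's method over 14916 genes, was below 0.05, and adjusted p-values are from that test unless another is named. Values after ± are standard errors (SE) for log2 contrasts and standard deviations (SD, n = 3) for CPM.

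The libraries held 27527043 to 40357342 counts, and 3 counts correspond to 0.0743 to 0.109 CPM. On principal components of log2 CPM the first axis (61.3% of variance) ran from unstimulated and OPN libraries at one end to FGF2 libraries at the other, with the joint libraries between them. The joint libraries lay apart from the other 9 on the second axis (18.4%), and unstimulated and OPN libraries separated on the third (7.35%). FGF2 replicate 2 stood farthest from its own group (0.237, as the root mean square of log2 differences from its group's other libraries), and the other 11 libraries ran from 0.110 to 0.212, with joint replicate 3 at the top. Defining fibroblast genes such as Col1a1, Col1a2 and Vim were abundant in every library. The summed level of 12 fibroblast markers was 67227 to 75688 CPM in unstimulated, 22215 to 23640 in FGF2, 50531 to 58156 in OPN and 31741 to 36117 in joint cells. Col1a1, Col1a2 and Col3a1 made up 90.4% of the unstimulated sum and 49.7% of the FGF2 sum, and members went both ways: 7 of the 12, such as Vim (4906 to 8943 CPM) and S100a4 (336 to 1371), had a higher mean with FGF2 than unstimulated, and 5 a lower one. Among markers of 8 other cell classes, 10 macrophage markers summed to 13.8 to 14.9 CPM in unstimulated, 55.3 to 58.6 in FGF2, 17.5 to 21.4 in OPN and 23.0 to 24.6 in joint cells. Most of the FGF2 value was Cd14 (44.9 CPM). Mrc1 (0.870 to 6.91 CPM) and Cd68 (1.21 to 3.97) also had a higher mean with FGF2 than unstimulated. Lyz2 (3.75 to 0.594 CPM) and Csf1r (2.84 to 0.492) had a lower one. The leukocyte gene Ptprc and the macrophage gene Adgre1 stayed at or below 0.253 and 0.0695 CPM in all 12 libraries. The 7 pericyte and smooth muscle markers summed to 302 to 317 CPM in unstimulated, 263 to 374 in FGF2, 220 to 292 in OPN and 249 to 262 in joint cells. Their members also differed: Rgs5 averaged 2.16 CPM in unstimulated and 42.0 in FGF2 cells, Cspg4 260 in both, and the 5 others, such as Notch3 (22.3 and 7.58) and Mcam (20.6 and 11.6), were lower with FGF2. The part of these other-cell markers in the results was not tested. In bulk RNA, fewer cells of a type and less RNA per cell cannot be told apart.

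OPN changed more genes with FGF2 than without it, and for many genes it changed them in a different direction or by a different size. The interaction was called for 7157 of 14916 genes (48.0%), of which 3657 lay above (24.5%) and 3500 below (23.5%) the additive level. With a difference of at least 2-fold the call held for 2606 genes (17.5%), 1540 of them above (10.3%) and 1066 below (7.15%). OPN without FGF2 changed 4103 genes (27.5%), 1943 up (13.0%) and 2160 down (14.5%), and 562 of them by 2-fold or more (3.77%), of which 370 rose (2.48%) and 192 fell (1.29%). OPN added to FGF2 changed 8313 genes (55.7%), 4206 up (28.2%) and 4107 down (27.5%), and 2516 of them by 2-fold or more (16.9%), of which 1547 rose (10.4%) and 969 fell (6.50%). The median absolute log2 effect of OPN over all genes tested was 0.21 without FGF2 and 0.36 with it. Leaving out FGF2 replicate 2 gave 7467 interaction calls, and leaving out joint replicate 3 gave 7264.

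Among genes that OPN changed in both settings, 1152 changed in the same direction and 1416 in opposite directions. These effects come from separate libraries, OPN against unstimulated and joint against FGF2. Across 14916 genes, which are not independent replicates, they had a Pearson r of -0.09 and a Spearman rho of -0.03. OPN raised 604 genes in both settings and lowered 548 in both. It raised 598 genes without FGF2 that it lowered with FGF2, and it lowered 818 genes without FGF2 that it raised with FGF2. All 1416 genes with opposite OPN effects were also called in the interaction, in the direction of the effect with FGF2. The interaction is the difference of these effects, so its direction follows from their opposite signs and is no separate evidence.

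**Figure D1:**
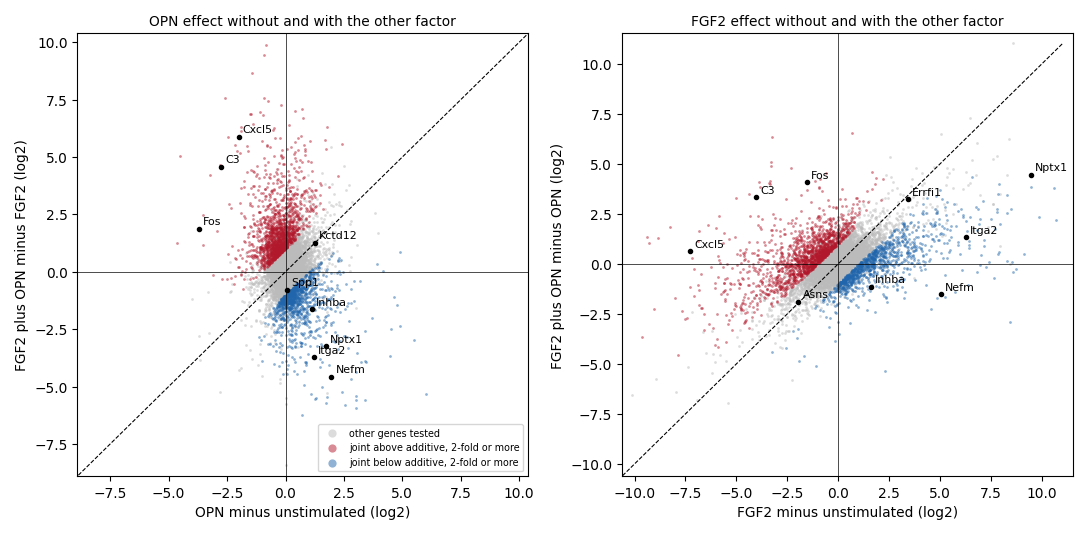
Log2 effect of each factor without (horizontal) and with (vertical) the other factor for 14916 genes, OPN at left and FGF2 at right, with the dashed line marking equal effects. Red and blue points are genes whose joint level was called at least 2-fold above (1540) or below (1066) the additive level. Named points are genes described in the text, and the OPN cloud is not drawn out along the dashed line.

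Among genes that FGF2 changed in both settings, 3591 changed in the same direction and 1364 in opposite directions. FGF2 changed 8173 genes without OPN (54.8%), 3976 up (26.7%) and 4197 down (28.1%), and 8002 genes with OPN (53.6%), 4039 up (27.1%) and 3963 down (26.6%). When libraries were scaled by their totals alone these splits became 5017 up and 3360 down without OPN, and 5193 up and 2834 down with OPN. The same scaling moved the median FGF2 effect with OPN over all genes from 0.01 to 0.12. The count at 2-fold or more was 2944 without OPN (19.7%), 1382 up (9.27%) and 1562 down (10.5%). With OPN it was 1925 (12.9%), 1137 up (7.62%) and 788 down (5.28%). FGF2 raised 1821 genes in both settings and lowered 1770 in both, while 592 rose without and fell with OPN and 772 did the reverse. Across 14916 genes the FGF2 effects without and with OPN, again from separate libraries, had a Pearson r of 0.48 and a Spearman rho of 0.34.

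The genes that responded most to FGF2 alone showed a fraction of that response in OPN-treated cells. The 195 genes that FGF2 raised by at least 4 log2 units without OPN had a median effect of 5.29, and the same genes had a median of 1.95 with OPN. For the 179 genes that it lowered by at least 4 log2 units the medians were -5.05 and -1.56. Genes raised by 1 to 2 log2 units (733) went from a median of 1.39 to 0.54, and genes lowered by 1 to 2 units (837) from -1.38 to -0.31. The bins were set by the value without OPN, so that value is a description. Genes picked as extreme on the effect without OPN tend to be less extreme on the effect with OPN. The smaller medians with OPN are therefore a description too, and bins set by the effect with OPN were not made. Of the 179 most lowered genes, 117 were also lowered with OPN, 23 were raised and 39 were not called.

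**Figure D2:**
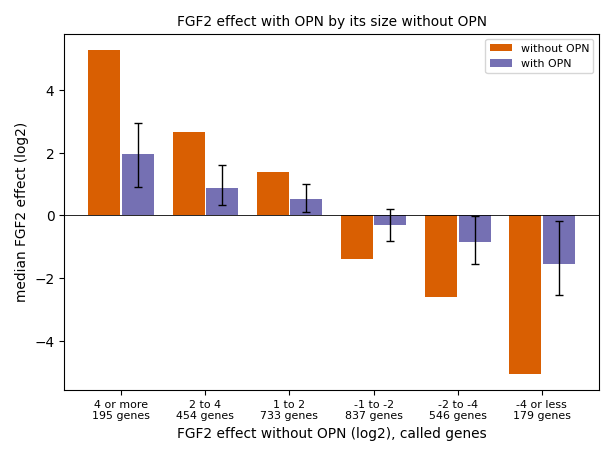
Median log2 FGF2 effect without OPN (orange) and with OPN (purple) for called genes binned by the effect without OPN, with whiskers for the quartiles of the effect with OPN. In each of the 6 bins the median with OPN has the same sign as without OPN and lies closer to 0. Choosing the bins on the effect without OPN favours smaller medians with OPN.

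The 12 largest positive interactions among called genes with at least 10 CPM in a group and at least 3 counts in every library included an acute phase gene, a complement gene, a chemokine gene and the transcription factor gene Fos. FGF2 alone lowered each of the 12 genes named by this rule, and OPN added to FGF2 raised each of them. Ranking by the interaction favours this form, so it is a description. Cxcl5 (chromosome 5, 90759360 to 90761624, GRCm38), which encodes a chemokine that attracts neutrophils, measured 167, 149.5 and 153 CPM in unstimulated, 1.54, 0.462 and 1.06 in FGF2, 36.8, 26.2 and 54.6 in OPN and 47.2, 67.1 and 67.2 in joint cells. Each FGF2 library was far below the other 9, and joint libraries overlapped the range of OPN libraries but not of unstimulated ones. The additive level was 0.255 CPM, and the interaction was 7.89 ± 0.48 (adjusted p = 9.4e-07).

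C3 (chromosome 17, 57203970 to 57228136), the central complement component, measured 34.4, 41 and 34.6 CPM in unstimulated, 1.8, 3.73 and 1.27 in FGF2, 5.04, 3.62 and 7.84 in OPN and 42.3, 47.7 and 72.2 in joint cells. OPN lowered C3 in the absence of FGF2 (log2 -2.76 ± 0.35) and raised it in the presence of FGF2 (log2 4.58 ± 0.40), and in both cases the libraries did not overlap. Its interaction was 7.34 ± 0.53 (adjusted p = 3e-06) against an additive level of 0.34 CPM. Hp, the haemoglobin-binding acute phase protein haptoglobin, had the same order: 9.46, 11.3 and 10.2 CPM unstimulated, 0.835, 1.52 and 0.697 with FGF2, 1.68, 1.12 and 1.59 with OPN and 21.8, 22.4 and 32 with both. The Hp interaction was 7.47 ± 0.32, and all 3 joint libraries lay above the 3 unstimulated ones. Kng1, the kininogen from which bradykinin is released, fell from 11.3, 12.4 and 11.6 CPM to 0.802, 0.528 and 0.364 with FGF2 and to 5.09, 2.76 and 5.57 with OPN, and reached 45.2, 51.7 and 51.3 with both. For Kng1 the joint libraries were the highest of the 12, and the interaction was 7.86 ± 0.32 (adjusted p = 2.1e-10).

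Ptx3, a soluble pattern recognition protein of the innate immune system, fell with FGF2 alone, and its OPN effect without FGF2 was -0.50 ± 0.30 and not called. It measured 586, 585 and 679 CPM unstimulated, 1.57, 0.792 and 1.09 with FGF2, 414, 295 and 595 with OPN and 67.1, 72.2 and 130.2 with both. Joint libraries lay above all FGF2 libraries and below all OPN and unstimulated libraries, and the interaction was 6.79 ± 0.56. In C3, Hp and Ptx3 joint replicate 3 was the highest joint library, and without any single library their interactions stayed at 7.04 or above, 7.25 or above and 6.41 or above. The C/EBP factors bind the core letters TTGCNNAA, searched on both strands in the 250 bases before the annotated start. That motif was present in 820 of 11288 promoters of tested genes (7.26%), in 104 of 1071 promoters of genes at least 2-fold above additive (9.71%) and in 58 of 790 of those at least 2-fold below (7.34%). The promoters of C3 and Ptx3 are shown because both genes stand among the largest positive interactions and carry 1 such match each, printed in capitals, 45 and 57 bases before the start. The sequences are from RefSeq (GRCm38.p6), 5′ to 3′ on the gene's strand, C3 at chr17:57228137-57228386, minus strand, and Ptx3 at chr3:66219637-66219886, plus strand.
C3: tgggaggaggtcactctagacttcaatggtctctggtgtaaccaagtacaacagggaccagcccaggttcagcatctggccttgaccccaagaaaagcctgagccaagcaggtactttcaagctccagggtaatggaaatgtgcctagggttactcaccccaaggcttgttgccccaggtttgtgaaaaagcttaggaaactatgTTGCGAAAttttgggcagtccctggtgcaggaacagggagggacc
Ptx3: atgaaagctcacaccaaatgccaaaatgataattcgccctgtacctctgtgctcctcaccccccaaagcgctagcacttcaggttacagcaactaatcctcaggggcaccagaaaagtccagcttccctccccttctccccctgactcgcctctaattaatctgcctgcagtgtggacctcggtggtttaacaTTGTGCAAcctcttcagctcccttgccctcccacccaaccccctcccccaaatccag
A match is a description of letters and not of binding.

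Fos (chromosome 12, 85473890 to 85477273), the AP-1 subunit and a classical immediate early gene, measured 331, 310.0 and 319 CPM in unstimulated, 118, 91.7 and 124 in FGF2, 26.2, 23.8 and 22.7 in OPN and 366, 422 and 433 in joint cells. The 4 groups did not overlap, OPN libraries were the lowest and joint libraries the highest. The additive level was 8.42 CPM, so the joint level was 48.3-fold above it (interaction 5.59 ± 0.15, adjusted p = 2.2e-13). The log2 effect of OPN on Fos was -3.72 ± 0.11 without FGF2 and 1.87 ± 0.10 with FGF2, both called.

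Wnt16, a secreted Wnt ligand, measured 54.4, 51.4 and 56.4 CPM unstimulated, 0.735, 1.19 and 0.818 with FGF2, 39.8, 30.2 and 48.2 with OPN and 47.6, 56.5 and 51.4 with both. The joint libraries overlapped the unstimulated ones, the FGF2 libraries were near 1 CPM, and the interaction was 6.28 ± 0.25. Il1rn, the antagonist of the interleukin-1 receptor, had a like form: 138, 142 and 136 CPM unstimulated, 4.74, 6.43 and 3.33 with FGF2, 92.9, 61.4 and 139 with OPN and 136, 174 and 169 with both. Ggt5, an enzyme that cleaves leukotriene C4, went from 26.2, 29.2 and 24.3 CPM to 0.534, 0.825 and 0.242 with FGF2 and 30.6, 39.2 and 44.4 with both. The interactions of Ggt5 and Il1rn were 6.71 ± 0.43 and 5.56 ± 0.44, and that of Rnf144a, an E3 ubiquitin ligase gene, was 5.92 ± 0.26. Bcl3, a nuclear member of the I-kappaB family, and Chl1, an adhesion molecule of the L1 family, had interactions of 5.57 ± 0.34 and 7.34 ± 0.52. Both were lowered by FGF2 alone and by OPN alone, and both were raised by OPN in the presence of FGF2.

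Under the same limits on level and counts, the 12 largest negative interactions belonged to genes that were below 2 CPM in unstimulated cells and that FGF2 alone raised. In each of them OPN added to FGF2 lowered the level. Most of these genes reached 10 CPM only in the FGF2 group. The limit and the ranking favour this form, so it is a description. Itga2 (chromosome 13, 114833081 to 114932100), the alpha 2 subunit of a collagen-binding integrin, measured 1.82, 1.26 and 1.62 CPM in unstimulated, 113, 133 and 120.1 in FGF2, 3.44, 4.17 and 3.38 in OPN and 9.49, 8.59 and 9.52 in joint cells. The 4 groups did not overlap. OPN raised Itga2 without FGF2 (log2 1.22 ± 0.15) and lowered it with FGF2 (log2 -3.73 ± 0.10), and the joint level was 30.8-fold below the additive 285 CPM (interaction -4.95 ± 0.17, adjusted p = 4.1e-12). Nefm (chromosome 14, 68082590 to 68124846), a neurofilament subunit, measured 0.895, 0.467 and 0.458 CPM unstimulated, 20.01, 22 and 18.5 with FGF2, 2.77, 2.5 and 1.89 with OPN and 0.952, 0.685 and 0.868 with both. FGF2 raised Nefm in the absence of OPN and lowered it in its presence, and the interaction was -6.54 ± 0.31 (adjusted p = 1.2e-10). Joint libraries overlapped the unstimulated range.

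Ptpn22, a tyrosine phosphatase best known from lymphocytes, measured 0.991, 0.969 and 1.13 CPM unstimulated, 88.7, 86.4 and 92 with FGF2, 3.21, 3.8 and 1.96 with OPN and 6.64, 4.35 and 6.59 with both, an interaction of -5.48 ± 0.29. Nptx1, a neuronal pentraxin, measured 0.48, 0.215 and 0.247 CPM unstimulated, 206, 275 and 194 with FGF2, 0.891, 1.54 and 0.743 with OPN and 26.8, 20.9 and 22.9 with both, an interaction of -4.99 ± 0.48. For Ptpn22 and Nptx1 each single factor gave a rise, and the joint libraries lay above the OPN libraries and below the FGF2 libraries. Cnr1, the cannabinoid receptor 1, reached 69.2, 142 and 62.6 CPM with FGF2 and 2.44, 2.84 and 1.61 with both, against 1.21, 1.29 and 1.52 unstimulated. Tslp, a cytokine that acts on dendritic cells, reached 45.4, 123 and 38.2 CPM with FGF2 and 2.31, 2.43 and 2.03 with both. In Cnr1 and Tslp FGF2 replicate 2 was the highest library, and the Tslp interaction (-5.73 ± 1.5, adjusted p = 0.012) was not called by limma-voom (adjusted p = 0.11). Hhip, which binds hedgehog ligands, Wnt7b, a Wnt ligand, Dynap, Fam167a and Tmem179 completed the set, with interactions of -5.07 ± 0.50, -4.35 ± 0.77, -4.51 ± 0.51, -4.55 ± 0.34 and -4.26 ± 0.35. Their joint levels averaged 1.06, 0.539, 0.584, 2.62 and 1.4 CPM, against 10.5, 11.7, 13.3, 24.3 and 13.3 with FGF2 alone.

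**Figure D3:**
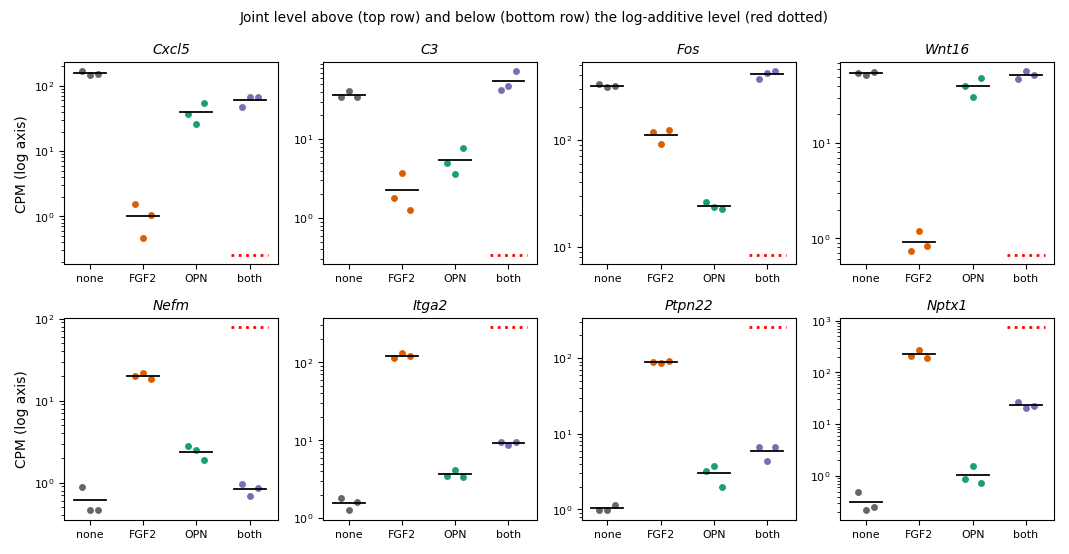
CPM (log axis) of 8 genes in each library of unstimulated (none), FGF2, OPN and joint (both) cells, with black lines for group means and a red dotted line for the additive level of joint cells. In the top row the joint libraries lie above the dotted line and in the bottom row below it.

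Serpinb2, plasminogen activator inhibitor 2, and Mmp10, the matrix metalloproteinase stromelysin 2, had the same form. Serpinb2 measured 0.575, 0.467 and 0.776 CPM unstimulated, 57.9, 32.2 and 67.6 with FGF2, 1.17, 2.81 and 1.01 with OPN and 3.4, 3.25 and 2.06 with both (interaction -5.65 ± 0.70, adjusted p = 9.2e-05). Mmp10 measured 0.0639, 0.0718 and 0.141 CPM unstimulated, which is a few counts, 121, 203 and 120.0 with FGF2, 0.28, 0.13 and 0.304 with OPN and 3.81, 2.94 and 2.96 with both (interaction -6.82 ± 1.09, adjusted p = 0.00033). Mmp10 is not among those 12, since not every library held 3 counts of it. Joint libraries of both genes were above unstimulated and far below FGF2 libraries. AP-1 factors, the dimers that Fos and Jun proteins form, bind the letters TGANTCA. That motif, on either strand, stood in the 250 bases before the start of 509 of 11288 tested genes (4.51%), of 81 of 790 genes at least 2-fold below additive (10.3%) and of 64 of 1071 genes at least 2-fold above (5.98%). The promoters of Mmp10 (chr9:7502092-7502341, plus strand) and Serpinb2 (chr1:107511173-107511422, plus strand) are shown because both genes are among those at least 2-fold below additive, each with 1 match in capitals, 63 and 94 bases before the start (RefSeq, GRCm38.p6, 5′ to 3′).
Mmp10: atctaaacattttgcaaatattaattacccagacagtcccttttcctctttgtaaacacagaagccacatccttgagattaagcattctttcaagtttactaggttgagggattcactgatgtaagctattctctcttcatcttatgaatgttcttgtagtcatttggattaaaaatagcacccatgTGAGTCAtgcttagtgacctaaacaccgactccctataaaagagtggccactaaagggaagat
Serpinb2: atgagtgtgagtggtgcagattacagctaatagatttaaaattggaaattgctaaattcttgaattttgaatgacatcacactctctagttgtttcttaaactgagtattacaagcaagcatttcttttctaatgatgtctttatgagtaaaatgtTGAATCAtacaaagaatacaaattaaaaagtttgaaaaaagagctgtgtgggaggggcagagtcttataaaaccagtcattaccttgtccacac
Fos RNA itself was highest in joint cells, where both genes lay below FGF2 and above unstimulated libraries. The part of AP-1 in these levels was not tested. The 9 motifs searched on both strands were AP-1, C/EBP, CRE (TGACGTCA), STAT (TTCNNNGAA), E2F (TTTNGCGC), the cell cycle homology element (TTTGAA), CARE (TGATGNAA), and the CArG box and NF-kappaB by name. Matches to different motifs were counted separately even where they share bases, and no test was made of the shares.

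In 155 genes OPN had called effects of at least 2-fold in opposite directions without and with FGF2. In 80 of these OPN lowered the gene alone and raised it with FGF2, and in 75 it did the reverse. Among genes with at least 10 CPM in a group and at least 3 counts in every library, Cxcl5, Kng1, Hp, C3 and Chl1 led the 80. Under the same limits Nefm, Ptpn22, Hhip, Nptx1 and Itga2 led the 75. The count of 75 fell to 47 without OPN replicate 2. Without limits on level or counts, 118 genes had called OPN effects of at least 2-fold in the same direction, 107 up and 11 down.

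FGF2 effects of at least 2-fold were opposed in 142 genes and in the same direction in 979 (493 up, 486 down). In 117 of the opposed genes FGF2 lowered the gene alone and raised it with OPN, and in 25 it raised the gene alone and lowered it with OPN. Inhba, which encodes the activin A subunit, belonged to the 25: it measured 137, 122 and 143 CPM unstimulated, 403, 414 and 414 with FGF2, 294, 337 and 246 with OPN and 130.0, 127 and 143 with both. Each factor raised Inhba by itself, and with both the libraries overlapped the unstimulated range (interaction -2.75 ± 0.14, adjusted p = 2e-10). Serpinb9b, a serpin gene, averaged 2.85 ± 0.459 CPM unstimulated, 7.44 ± 2.85 with FGF2, 14 ± 2.36 with OPN and 2.84 ± 0.577 with both (SD, n = 3), an interaction of -3.68 ± 0.37. Phgdh, the first enzyme of serine synthesis, rose with FGF2 from 242, 273 and 271 to 864, 702 and 938 CPM, was 205, 208 and 184 with OPN and fell to 103, 72.5 and 107 with both. Its joint libraries were the lowest of the 12.

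Some strong FGF2 effects were nearly equal without and with OPN. Additive genes were defined by called effects of at least 2-fold in the same direction in both settings and a 95% interval of the interaction within 0.5 log2 units of 0. This held for 57 of 979 genes with such FGF2 effects in the same direction, 34 up and 23 down, and for 1 of 118 for OPN. The interval also depends on the SE (median 0.15), so a gene outside this definition is not shown to be non-additive. Whatever their size, 1014 of 1821 genes that FGF2 raised in both settings had no interaction called. The same held for 1045 of 1770 that it lowered in both. For OPN these counts were 383 of 604 and 381 of 548. Errfi1, a feedback inhibitor of the EGF receptor, measured 49.5, 47.7 and 45.6 CPM unstimulated, 465, 587 and 462 with FGF2, 31.4, 30.5 and 29.7 with OPN and 261, 284 and 315 with both. FGF2 raised it by 3.41 ± 0.10 without and 3.23 ± 0.10 with OPN, and the interaction interval was -0.45 to 0.10. Nrn1, a neuritin that promotes neurite growth, measured 54.5, 54.7 and 57.2 CPM unstimulated and 227, 226 and 219.8 with FGF2, with 58.3, 56.8 and 42.8 in OPN and 212, 213 and 209.6 in joint cells, an interaction interval of -0.27 to 0.25. Asns, asparagine synthetase and a target of the integrated stress response, fell to 68.5, 48.3 and 70.4 CPM with FGF2 from 246, 235 and 247, and was 46.8, 44.6 and 60.1 with both against 191, 189 and 186 with OPN (interval -0.33 to 0.44). Cyb5r1, Dusp8, a phosphatase of MAP kinases, and Syt17 had intervals of -0.46 to 0.18, -0.40 to 0.45 and -0.22 to 0.41. Kctd12, an auxiliary subunit of GABA-B receptors, was the gene that OPN raised alike in both settings: 127, 107 and 121 CPM unstimulated, 263, 296 and 279.7 with OPN, 99.9, 91.8 and 94.6 with FGF2 and 220.2, 259 and 209 with both (interval -0.22 to 0.27).

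**Figure D4:**
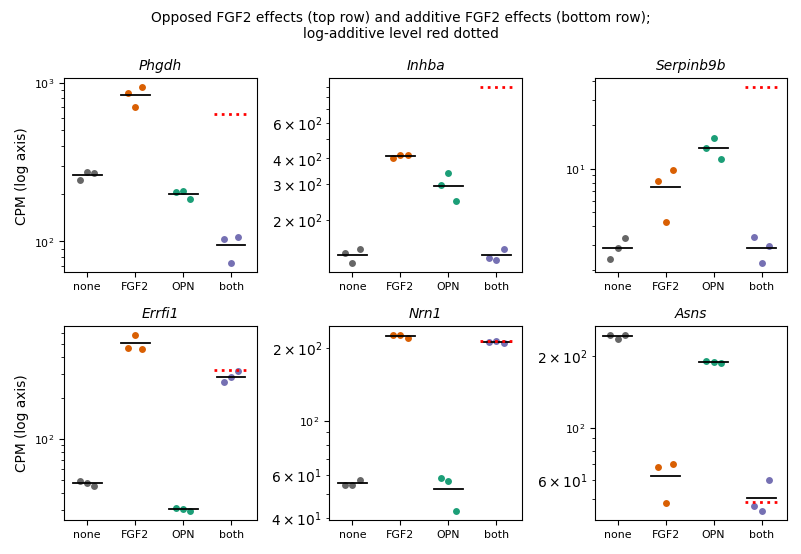
CPM (log axis) of 6 genes in each library, with group means in black and the additive level of joint cells dotted in red. In the top row FGF2 raised the gene without OPN and lowered it with OPN, and in the bottom row the joint libraries lie around the dotted line.

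Of the agents' own genes, Spp1, which encodes OPN, was raised by FGF2 in both settings. It measured 1442, 1489 and 1394 CPM unstimulated, 16616, 27965 and 16085 with FGF2, 1533, 1631 and 1373 with OPN and 12017, 10661 and 12389 with both. FGF2 and joint libraries all lay above the rest, and joint libraries lay below FGF2 ones. The Spp1 interaction was -0.86 ± 0.23 (adjusted p = 0.0075), it was -0.55 without FGF2 replicate 2, the highest library, and the call was lost when no count filter was applied (adjusted p = 0.0504). Fgf2 itself measured 73.2, 63.7 and 68.5 CPM unstimulated, 434, 392 and 447 with FGF2, 124, 176 and 89.4 with OPN and 282, 275 and 229.6 with both, an interaction of -1.62 ± 0.28.

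Of 9 genes for osteopontin and its receptors, 7 lay below and 2 above the additive level, against 23.5% and 24.5% of all genes tested. The share above was thus near that of all genes, and the median interaction was -0.86 against 0.01 for all genes tested. Itgb3, the beta 3 integrin subunit that pairs with alpha v, measured 29.6, 28.4 and 28.9 CPM unstimulated, 621, 630.4 and 616 with FGF2, 24.2, 27.5 and 20.7 with OPN and 65.8, 58.4 and 66 with both. Its rise with FGF2 was 4.43 ± 0.09 without and 1.39 ± 0.08 with OPN, and the groups did not overlap (interaction -3.04 ± 0.12). Cd44, the other class of OPN receptor, measured 215, 186 and 218 CPM unstimulated, 884, 666 and 917 with FGF2, 259, 303 and 222 with OPN and 321, 305 and 280.1 with both. FGF2 raised Cd44 by 2.0 ± 0.13 alone, and the effect with OPN was 0.21 ± 0.12 and not called. Itgav, the alpha v subunit, rose with each factor alone and averaged 178 ± 19 CPM unstimulated, 343 ± 57.8 with FGF2, 326 ± 53 with OPN and 204 ± 31.3 with both. Itga4, the alpha 4 subunit, was 5.91 CPM with FGF2 and 1.27 with both.

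Of 14 tested FGF ligands and receptors, 10 lay above and 3 below the additive level, against 24.5% and 23.5% of all genes tested (median 0.80). Fgfr2 measured 70.2, 65.3 and 66 CPM unstimulated, 8.08, 7.45 and 9.03 with FGF2, 147, 124 and 180.0 with OPN and 57.3, 69.7 and 62.1 with both. OPN raised Fgfr2 in both settings, by 1.16 ± 0.11 without and 2.94 ± 0.13 with FGF2, and the joint libraries overlapped the unstimulated ones. On the CPM scale its contrast was -28.4 ± 16.7 (SE), opposite in sign to the log2 interaction of 1.78 ± 0.17. Fgfr1, the main FGF receptor of mesenchymal cells, moved less than Fgfr2: 388 ± 9.999, 485 ± 17.8, 311 ± 11 and 479 ± 7.97 CPM in the 4 groups, an interaction of 0.30 ± 0.08. Fgf1, an intracellular and secreted FGF, was 1.8, 2.51 and 1.64 CPM with FGF2 and 0.206, 0.479 and 0.193 with both, and its interaction was no longer called without OPN replicate 1 (log2 -2.03, adjusted p = 0.11). Fgf21, a metabolic hormone induced by cell stress, had 0 counts in all 3 FGF2 libraries and 0.0772, 0.137 and 0.257 CPM in joint libraries, against 0.863, 0.826 and 0.635 unstimulated.

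Most ERK feedback and target genes tested lay below the additive level. Of 21 ERK feedback and target genes, 17 lay below and 3 above the additive level, against 23.5% and 24.5% of all genes tested (median -1.12). FGF2 raised 16 of the 21 without OPN (median effect 2.23) and 16 with OPN (median 0.71), against 26.7% and 27.1% of all genes. Spry4, which encodes a Sprouty inhibitor of RAS-ERK signalling, measured 4.03, 3.48 and 4.2 CPM unstimulated, 73.3, 91 and 67 with FGF2, 6.64, 7.39 and 5.07 with OPN and 10.2, 7.77 and 9.13 with both, an interaction of -3.8 ± 0.22. Ccnd1, cyclin D1, measured 139, 139 and 141 CPM unstimulated, 1454, 1487 and 1463 with FGF2, 263, 356 and 218 with OPN and 261, 213 and 235 with both. Joint and OPN libraries of Ccnd1 overlapped, and its FGF2 effect was 3.39 ± 0.14 without OPN and -0.24 ± 0.13 with OPN, the latter not called. Dusp4, an ERK phosphatase, and Etv4, an ETS factor induced by FGF, were 103 ± 7.87 and 118 ± 3.14 CPM with FGF2 and 21.3 ± 0.907 and 18.3 ± 2.13 with both. Their interactions were -3.11 ± 0.22 and -3.09 ± 0.28.

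Immediate early genes went the other way. All 14 were lowered by OPN alone (median -1.44), as were 14.5% of all genes tested. A positive interaction was called in 13 of 14 and a negative one in none (median 2.30), against 24.5% and 23.5% of all genes. With FGF2 present OPN raised 8 of them and lowered 2, against 28.2% and 27.5% of all genes. FGF2 alone lowered 10 of the 14 and raised 2 (median -0.69), against 28.1% and 26.7% of all genes. When OPN was present FGF2 raised 12 and lowered none (median 1.80), against 27.1% and 26.6%. Egr1, a zinc finger factor, measured 432, 408 and 405 CPM unstimulated, 207, 206 and 206 with FGF2, 88.5, 86.9 and 79.6 with OPN and 439.9, 473 and 444 with both (interaction 3.42 ± 0.09, adjusted p = 1.3e-13). Its joint libraries lay above all others, as those of Zfp36, which promotes decay of cytokine mRNA, did at 237, 269 and 255 CPM against 132, 120.3 and 125 unstimulated. Zfp36 was 68, 66.9 and 61.3 CPM with FGF2 and 35.8, 38 and 36.7 with OPN, an interaction of 3.73 ± 0.09. Fosb, another AP-1 subunit, was 150.5 ± 6.86, 79.4 ± 25, 13 ± 1.29 and 177 ± 38.7 CPM in unstimulated, FGF2, OPN and joint cells.

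**Figure D5:**
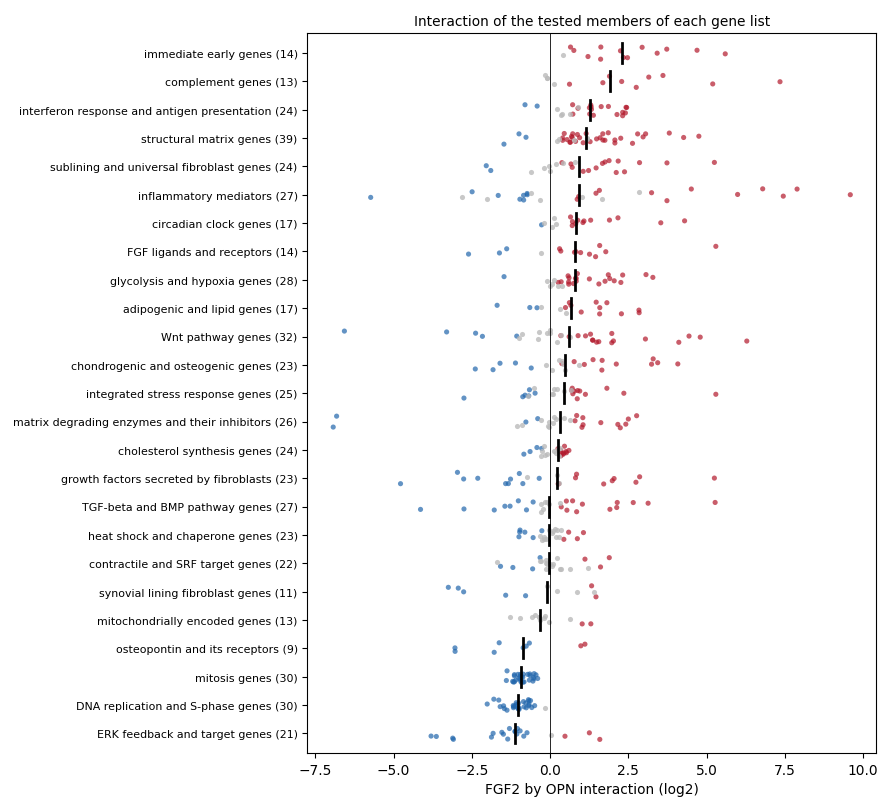
Log2 interaction of each tested member (points) of 25 gene lists, with the number of tested members in brackets and the list median as a black bar. Red and blue points were called above and below the additive level and grey points were not called. Immediate early genes have the highest median (2.30) and ERK feedback and target genes the lowest (-1.12).

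Most cell cycle genes tested were lower with both factors than with either alone. All 30 mitosis genes and 29 of 30 DNA replication and S-phase genes lay below the additive level, against 23.5% of all genes tested, with medians of -0.92 and -1.01. FGF2 alone raised 14 mitosis and 12 replication genes, and lowered none and 1, against 26.7% raised and 28.1% lowered of all genes. With OPN present FGF2 lowered 27 mitosis and 26 replication genes and raised none, against 26.6% lowered and 27.1% raised of all genes. OPN alone lowered 5 of the 30 mitosis genes, near the 14.5% of all genes, and raised none. When FGF2 was present OPN lowered all 30, against 27.5% of all genes. Cenpf, a kinetochore protein, measured 25.8, 26.4 and 31.5 CPM unstimulated, 43.7, 35.8 and 44.2 with FGF2, 26.8, 29.7 and 29.4 with OPN and 18.1, 15.6 and 15.1 with both. The 3 joint libraries were the lowest of the 12 (interaction -1.37 ± 0.14, adjusted p = 9.4e-07). Ccne2, cyclin E2, measured 12.4, 10.1 and 12.4 CPM unstimulated, 13, 8.58 and 14.1 with FGF2, 18.8, 17.9 and 16.4 with OPN and 4.84, 4.14 and 4.47 with both, an interaction of -2.01 ± 0.22. Joint libraries were likewise the lowest for Anln (70.7, 51.8 and 60.3 CPM), a scaffold of the cleavage furrow, Ndc80 (10.6, 7.91 and 11.1 CPM), a kinetochore protein, and Prc1 (35.3, 25.5 and 33.2 CPM), a spindle midzone protein. Rrm2, a subunit of ribonucleotide reductase, and Cdc6, a licensing factor of replication origins, had interactions of -1.8 ± 0.35 and -1.59 ± 0.26. In all 7 of these genes FGF2 replicate 2 was the lowest FGF2 library. The cell cycle homology element TTTGAA stood in 7 of 25 promoters of mitosis genes (28%) against 10.6% of all promoters, and the E2F letters TTTNGCGC in 4 of 24 promoters of replication genes (16.7%) against 1.90%. Among all genes at least 2-fold below additive, TTTGAA stood in 99 of 790 promoters (12.5%) and TTTNGCGC in 15 (1.90%). Among those at least 2-fold above, the counts were 118 of 1071 (11%) and 10 (0.934%). These shares thus describe the 2 gene lists and not negative interactions in general.

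Most structural matrix genes tested were lowered by FGF2 alone, and most lay above the additive level with both factors. Of 39 tested, 31 lay above and 3 below the additive level, against 24.5% and 23.5% of all genes (median 1.15). FGF2 lowered 33 without OPN (median -2.13) and 27 with OPN (median -0.85), against 28.1% and 26.6% of all genes. OPN raised 11 without FGF2 and 34 with it, against 13.0% and 28.2%. Comp, cartilage oligomeric matrix protein, measured 2240.3, 2537 and 2405 CPM unstimulated, 101, 59.5 and 94.9 with FGF2, 3365, 3481 and 3528 with OPN and 1559, 1594 and 2002 with both. OPN raised Comp by 0.53 ± 0.15 without FGF2 and by 4.34 ± 0.18 with FGF2 (interaction 3.81 ± 0.22). Ogn, osteoglycin, measured 242, 179 and 206 CPM unstimulated, 9.39, 10.1 and 10.4 with FGF2, 329.5, 299 and 328 with OPN and 265, 329 and 282 with both, and FGF2 with OPN changed it by -0.13 ± 0.10, which was not called. Aspn, asporin, was 122 ± 24.4, 2.78 ± 0.531, 210.1 ± 16.7 and 129.7 ± 10.4 CPM in the 4 groups (interaction 4.75 ± 0.21). Vcan, the proteoglycan versican, differed in form: each single factor lowered it, to 129, 96.2 and 149 CPM with FGF2 and 197, 203 and 206 with OPN from 477, 428 and 453, and with both it was 419, 512 and 454.

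Of 26 tested matrix degrading enzymes and inhibitors, 11 lay above and 4 below the additive level, against 24.5% and 23.5% of all genes tested (median 0.32). Adamts5, an aggrecanase, measured 432, 390.1 and 398 CPM unstimulated, 25.6, 21.5 and 26.1 with FGF2, 357, 415 and 389.9 with OPN and 122, 136 and 136 with both. The FGF2 effect was -4.06 ± 0.09 without and -1.56 ± 0.08 with OPN, and joint libraries stood between FGF2 libraries and the rest (interaction 2.5 ± 0.12). Adamts8, another protease of this family, went the way of Mmp10, at 3.51, 14.1 and 3.76 CPM with FGF2 and 0.0514, 0.0342 and 0.193 with both, with FGF2 replicate 2 the highest. Adamts15 stayed at or below 0.469 CPM in the other 9 libraries and reached 1.72, 2.05 and 1.42 with both.

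Of 27 tested inflammatory mediators, 12 lay above and 8 below the additive level, against 24.5% and 23.5% of all genes tested, so the share below is near that of all genes (median 0.91). The list was mixed: Cxcl5 and Ptx3 lay above, whereas Tslp lay below. Saa3, an acute phase protein, and Lcn2, lipocalin 2, had few counts, and 1 joint library stood above the others. Saa3 measured 0.566, 0.377 and 11.3 CPM in joint libraries and 0.831, 1.08 and 1.59 in unstimulated ones, and Lcn2 1.9, 2.12 and 8.94 and 1.95, 2.58 and 2.75, and joint replicate 3 alone exceeded all unstimulated libraries. The interaction of Saa3 was 9.59 ± 2.46, 6.52 without that library and not called by limma-voom (adjusted p = 0.0555), and that of Lcn2 was 7.45 ± 1.19, and 6.34 without it. Of 13 tested complement genes, 9 lay above the additive level and none below, against 24.5% and 23.5% of all genes (median 1.90). OPN raised 12 of the 13 when FGF2 was present, as it did 28.2% of all genes. C4b measured 41.5, 49.6 and 42.4 CPM unstimulated, 1.1, 3.23 and 1.27 with FGF2, 45.2, 29.4 and 82.2 with OPN and 75.5, 91.9 and 72.1 with both. Each FGF2 library of C4b was below the other 9, and OPN in the presence of FGF2 raised it by 5.42 ± 0.49 (interaction 5.19 ± 0.61). Serping1, the inhibitor of C1, averaged 96.6 ± 5.13 CPM unstimulated, 10.3 ± 2.32 with FGF2, 61.2 ± 18.8 with OPN and 79.6 ± 7.27 with both. C1qtnf1, a secreted protein with a C1q domain, had an interaction of 3.15 ± 0.20.

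Of 24 tested genes of interferon response and antigen presentation, 17 lay above and 2 below the additive level, against 24.5% and 23.5% of all genes (median 1.28). OPN raised 4 and lowered 1 without FGF2, against 13.0% and 14.5%, and raised 21 and lowered none with FGF2, against 28.2% and 27.5%. Ifit1, which binds viral RNA, measured 3.42, 3.66 and 4.27 CPM unstimulated, 1.67, 1.98 and 1.24 with FGF2, 4.76, 3.23 and 3.82 with OPN and 5.81, 14.3 and 7.78 with both (interaction 2.45 ± 0.42). Gbp3, a guanylate-binding protein, measured 3.26, 2.4 and 3.32 CPM unstimulated, 1.1, 1.75 and 1.42 with FGF2, 2.95, 1.95 and 3.65 with OPN and 4.73, 10.6 and 4.95 with both. Joint replicate 2 was the highest library for Ifit1, Gbp3 and Oasl2 (2.75, 6.81 and 2.83 CPM in joint cells), and Psmb8, an immunoproteasome subunit, had an interaction of 2.42 ± 0.56.

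Among markers of fibroblast states, sublining and universal fibroblast genes lay above the additive level in 15 of 24 and below in 2 (median 0.93), and synovial lining genes in 2 and 5 of 11 (median -0.11). Of all genes tested 24.5% lay above and 23.5% below, so the lining share above was under that of all genes. Cxcl12, a chemokine that binds CXCR4, measured 323, 309 and 296 CPM unstimulated, 38.8, 30.8 and 43.9 with FGF2, 405, 342 and 476 with OPN and 622, 751 and 617 with both. All 3 joint libraries of Cxcl12 were above the other 9, and the interaction was 3.73 ± 0.19. Igf1, insulin-like growth factor 1, measured 20.9, 19 and 20.9 CPM unstimulated, 0.935, 0.792 and 0.636 with FGF2, 25, 19.5 and 36.9 with OPN and 34.3, 50.4 and 35.2 with both (interaction 5.25 ± 0.39). Ly6c1 and Cxcl14 had interactions of 2.86 ± 0.18 and 2.38 ± 0.33. On the lining side Hbegf, a ligand of the EGF receptor, was 227, 180.5 and 235 CPM with FGF2 and 39.1, 36.9 and 48.5 with both, which overlapped 37.8, 39.6 and 39.7 unstimulated. Clic5 and Fam180a had interactions of -3.25 ± 0.48 and -2.93 ± 0.37, and Htra4 of 1.47 ± 0.29.

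Wnt, BMP and skeletal genes contained members at both ends. Of 32 Wnt pathway genes 17 lay above and 5 below (median 0.62), and of 27 TGF-beta and BMP genes 12 and 8 (median -0.03), against 24.5% and 23.5% of all genes tested. Sfrp1, a secreted Wnt antagonist, measured 223, 213 and 216 CPM unstimulated, 13.6, 15.1 and 12.7 with FGF2, 144, 74.9 and 226 with OPN and 162, 199 and 249.7 with both. Its OPN libraries were widely spread, and FGF2 libraries were below all others (interaction 4.44 ± 0.50). Wnt4 had an interaction of 4.79 ± 0.89 at levels of 0, 0 and 0.0303 CPM with FGF2 and 0.514, 0.65 and 0.45 with both, and Dkk1, another Wnt antagonist, had 0 counts in all unstimulated libraries and reached 0.367, 0.528 and 0.606 CPM with FGF2. Bmp2, a bone morphogenetic protein, measured 3.84, 3.34 and 3.84 CPM unstimulated, 248, 368 and 239 with FGF2, 6.59, 4.69 and 2.53 with OPN and 22.6, 19.6 and 19.9 with both (interaction -4.14 ± 0.41, adjusted p = 2.2e-05). The joint libraries of Bmp2 stood above unstimulated and OPN libraries and far below FGF2 ones. Gdf10, a member of the same superfamily, measured 1.76, 1.69 and 1.69 CPM unstimulated, 0.501, 1.12 and 0.455 with FGF2, 8.4, 7.63 and 11.6 with OPN and 29, 34.7 and 33.2 with both. OPN raised it in both settings, and more with FGF2 (interaction 3.13 ± 0.34). Gdf5, a factor of joint formation, was 2.01, 2.33 and 1.38 CPM in joint cells and at or below 0.564 CPM in the other 9 libraries.

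Chondrogenic and osteogenic genes lay above the additive level in 11 of 23 and below in 5 (median 0.48). Of all genes tested 24.5% lay above and 23.5% below, so the share below was near that of all genes. Tnfsf11, which encodes the osteoclast-inducing ligand RANKL, measured 19.9, 18.2 and 25.2 CPM unstimulated, 4.41, 4.26 and 5.03 with FGF2, 6.84, 4.48 and 7.6 with OPN and 17.7, 24.7 and 26.7 with both. Each factor alone lowered Tnfsf11, and joint libraries overlapped unstimulated ones (interaction 4.08 ± 0.28, adjusted p = 4.6e-08). Alpl, alkaline phosphatase, was 25.5, 23.5 and 22 CPM unstimulated, 0.134, 0.792 and 0.212 with FGF2 and 2.55, 3.25 and 3.67 with both, and Omd, osteomodulin, had an interaction of 3.24 ± 0.31 on the log2 scale but -0.934 ± 3.39 (SE) as a CPM contrast. Ibsp, bone sialoprotein, measured 0, 0.132 and 0.0303 CPM with FGF2 and 0.54, 0.479 and 0.933 with both, and its call was lost when FGF2 replicate 1, FGF2 replicate 3 or joint replicate 3 was left out (adjusted p = 0.0855 to 0.0969).

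Of 25 integrated stress response genes 11 lay above and 6 below the additive level (median 0.44), against 24.5% and 23.5% of all genes. FGF2 lowered 23 of them without OPN and 22 with OPN, against 28.1% and 26.6%. Ddit4, an inhibitor of mTORC1, measured 142, 166 and 162 CPM unstimulated, 42.6, 40.6 and 40.5 with FGF2, 86.6, 79.5 and 99.9 with OPN and 99, 115 and 144 with both. The joint libraries of Ddit4 were above all FGF2 libraries, with 1 of them below the highest OPN library (interaction 2.36 ± 0.17). Cebpb and Cebpd, which encode C/EBP factors, were lowered by each factor alone and raised by OPN with FGF2. Cebpb averaged 118 ± 20.5, 66.7 ± 4.52, 67.1 ± 5.89 and 134 ± 8.52 CPM in the 4 groups, and Cebpd 114 ± 13.4, 38.9 ± 5.26, 54.2 ± 1.01 and 132 ± 9.93. Of 28 glycolysis and hypoxia genes OPN alone lowered 24 and raised none, against 14.5% and 13.0% of all genes. Of the 28, 21 lay above and 1 below the additive level, against 24.5% and 23.5% (median 0.78). Pfkfb3, an activator of glycolysis, measured 93.5, 85.2 and 90.3 CPM unstimulated, 12.2, 13.8 and 15 with FGF2, 55.7, 42 and 69.7 with OPN and 66.4, 72.1 and 74.4 with both (interaction 3.06 ± 0.20). Car9 and Car12, carbonic anhydrases, and Adm, adrenomedullin, had interactions of 3.28 ± 0.40, 2.26 ± 0.28 and 2.32 ± 0.26.

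Of 17 circadian clock genes 12 lay above and 1 below, against 24.5% and 23.5% of all genes tested (median 0.82). Nfil3, a repressor in the clock output, measured 58, 60.7 and 59.7 CPM unstimulated, 8.55, 7.65 and 8.001 with FGF2, 22.1, 19.5 and 24.1 with OPN and 51.9, 60.3 and 62.9 with both (interaction 4.3 ± 0.13, adjusted p = 7.4e-13). Joint libraries of Nfil3 overlapped the unstimulated ones and lay above both single treatments. Npas2 and Per2 had interactions of 3.54 ± 0.41 and 1.9 ± 0.19, and Hlf 2.17 ± 0.67, which became 3.29 without FGF2 replicate 2. Of 17 adipogenic and lipid genes 11 lay above and 3 below, against the same 24.5% and 23.5% of all genes (median 0.67). Apoe, a lipid carrier, measured 3.04, 2.73 and 3.74 CPM unstimulated, 1.57, 2.28 and 1.85 with FGF2, 5.9, 4.43 and 10.5 with OPN and 32.1, 30.3 and 26.2 with both, and Lpl, lipoprotein lipase, 8.44 ± 0.597, 4.9 ± 0.847, 13.4 ± 3.21 and 37.9 ± 8.2. Joint libraries were the highest of the 12 for both.

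The lists that follow are read against the same shares of all genes, 24.5% above and 23.5% below. Of 24 cholesterol synthesis genes 10 lay above and 4 below (median 0.26), none by 2-fold. Msmo1 and Insig1 had interactions of -0.84 ± 0.12 and -0.64 ± 0.10, and Tm7sf2 and Pmvk of 0.60 ± 0.19 and 0.52 ± 0.19. The call of Tm7sf2 was lost without OPN replicate 1 or unstimulated replicate 2 (adjusted p = 0.0521 and 0.0561), and that of Pmvk without unstimulated replicate 2 or 3, FGF2 replicate 1 or 2, OPN replicate 1 or 3, or joint replicate 3 (0.0523 to 0.106). Of 23 chaperone genes 4 lay above and 6 below (median -0.05), neither share above that of all genes by more than 3 percentage points, with Hspa1a at 1.07 ± 0.20, Hspa1b at -0.96 ± 0.18, Hspd1 at -0.99 ± 0.12 and Hsp90aa1 at -0.97 ± 0.12. Of 22 contractile genes 3 lay above and 4 below (median -0.05), both shares under those of all genes. Mylk, myosin light chain kinase, had an interaction of 1.61 ± 0.15, Lmod1 1.89 ± 0.44 and Ankrd1 -1.58 ± 0.49, while Tagln was at -1.71 ± 0.67 and not called (adjusted p = 0.054). Tagln was called without unstimulated replicate 2, FGF2 replicate 2, OPN replicate 3 or joint replicate 3 (adjusted p = 0.00385 to 0.0458). Of 23 secreted growth factors 10 lay above and 10 below (median 0.22). Artn, artemin, lay above by 2.86 ± 0.25, and Areg, amphiregulin, was 1.84, 2.64 and 2.24 CPM with FGF2 and 0.0514, 0.24 and 0.161 with both, a call that was lost without OPN replicate 2 (adjusted p = 0.34). Of 13 mitochondrially encoded genes 2 lay above and none below (median -0.31), with mt-Co3 at 1.3 ± 0.21, mt-Atp6 at 1.03 ± 0.35, and mt-Atp8 (-1.27 ± 0.64) and mt-Nd6 (-0.97 ± 0.43) not called. The call of mt-Atp6 was lost without unstimulated replicate 1 or 2, FGF2 replicate 1 or 3, OPN replicate 1 or 3, or joint replicate 1 or 2 (adjusted p = 0.0573 to 0.0744). That of mt-Atp8 was gained without joint replicate 1 (0.0435), and that of mt-Nd6 without unstimulated replicate 1, FGF2 replicate 3 or joint replicate 2 (0.0361 to 0.0461). Without a count filter the calls of Oasl2, Ankrd1, Hlf, Ibsp and mt-Atp6 were lost (adjusted p = 0.061, 0.0654, 0.0512, 0.106 and 0.0975).

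An interaction depends on the scale on which effects are added. The same contrast of group means in CPM had the opposite sign to the log2 interaction for 83 of 7157 called genes (1.16%), 80 of them positive on the log2 scale, and for 61 of the 2606 genes at 2-fold or more (2.34%). On the CPM scale 3580 of the called genes were positive and 3577 negative. For Fos the CPM contrast was 592 ± 23.7 (SE) and for Spp1 -8603 ± 3911, the sign of the log2 value in both. Of the called genes named here, Fgfr2, Omd, Lmod1 and Ibsp had opposite signs, and each CPM contrast of these 4 was within 2 SE of 0.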

How the data were processed

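RNA was read in 12 libraries of naive fibroblasts. An RNeasy column kit isolated the RNA, and a NovaSeq X Plus read both fragment ends, per the labels. The values deposited are raw gene counts, which the authors made with STAR and featureCounts on GRCm38 (mm10), per the submitters' processing notes. Versions, annotation release and strand setting are not stated in these sources, so reads of a gene and an antisense partner may be mixed. Of 32285 identifiers 32158 were matched to symbols of the GENCODE annotation supplied, and the 127 others took 0.029% of counts.

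Counts were fitted in R 4.3.3 with edgeR 4.0.16 (filterByExpr, 14916 genes; TMM; 1 mean per group; robust quasi-likelihood; biological coefficient of variation 9%). The interaction and the 4 single-factor contrasts were tested two-sided, and the fit was tested on simulated data. CPM were computed on TMM-scaled totals, those of cell class markers on plain totals. Depth limits precision as 3 counts in a library equal 0.0743 to 0.109 CPM, for counting error only. No pair of replicates was identical (chi-square per degree of freedom 4.42 to 40.7 over 12 pairs).

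The members, the 25 gene lists and the markers of 9 cell classes were chosen with earlier results of these data known. Named genes followed a rule: the 12 largest positive and 12 largest negative interactions among genes with an adjusted p below 0.05, at least 10 CPM in a group, at least 3 counts in every library and a symbol other than Gm plus digits or an ending in Rik; the 5 largest opposed genes per factor and direction; up to 6 additive genes per factor; up to 4 genes per list; and Spp1, Cd44, Itgav, Itgb3, Fgf2, Fgf1, Fgfr1 and Fgfr2. The opposed and additive genes were taken under the same limits on level, counts and symbol. Marker genes are named besides. Promoters are RefSeq sequences for 11288 of the genes tested. Alternatives were DESeq2 1.42.0, limma-voom (limma 3.58.1), RLE factors, library totals alone, no count filter, at least 1 CPM in 3 libraries, all 18 libraries, a replicate block and each library left out. Replicate numbers were checked for pairing: deviations from group means correlated at 0.151 to 0.219 in the 3 same-numbered pairs of FGF2 and joint libraries, against -0.258 to 0.003 in their 6 differently numbered pairs, and in no other pair of groups did every same-numbered pair exceed 0.1. The labels do not say what a number shares. Some list members that the rule allowed are not reported here.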

Additional observations from a re-analysis of the deposited data

Results flagged for a closer look

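The effect of OPN without FGF2 and its effect with FGF2 differed by a test of the difference itself for 7157 genes (edgeR's quasi-likelihood interaction test, Benjamini-Hochberg adjusted over 14916 genes). OPN effects were in opposite directions, each called, for 1416 of them.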

How the results depend on the processing

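Interaction calls numbered 6493 to 7467 with 1 library left out, and 6909 to 7723 under the other alternatives, against 7157. No gene was called in opposite directions in any of the 20 alternatives. With 3 libraries per group and a median SE of 0.15, small interactions were not detectable, and a gene that was not called is not shown to be additive.

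Judged by correlated deviations, replicate numbers did not pair libraries over all 4 groups. Same-numbered libraries had correlations of -0.379 to 0.219, above 0.1 in 4 of 18 pairs. A library correlated best with its own number in 8 of 36 combinations of library and other group. With the replicate block 6928 genes were called, 6854 of them shared with the main set in the same direction, and 8109 genes were called for the OPN effect with FGF2, against 8313. Of those 4 pairs 3 are the same-numbered FGF2 and joint libraries. In a fit of these 6 libraries alone, chosen after seeing the data, the OPN effect with FGF2 was called in 7612 genes without and 7893 with the replicate block, 7556 and 7724 of them shared with the main set in the same direction and none opposite. Mitochondrially encoded genes took the smallest share of counts in replicate 3 of unstimulated (0.374%), FGF2 (0.477%) and joint (0.455%) cells. With OPN replicate 3 had 0.628% and replicate 1 had 0.601%. The replicate block gave 3 of the 13 mitochondrially encoded genes above and 1 below the additive level, against 2 and none. What a number shares was not tested.

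The single additive OPN gene became 2 with DESeq2 (1 of them lower), 4 with all 18 libraries (3 higher, 1 lower) and 2 without a count filter (2 higher). With 1 library left out it ranged from 1 to 3, with 1 to 3 higher and 0 to 1 lower. The 23 additive FGF2 genes that fell became 15 with library totals alone. The 75 genes that OPN raised alone and lowered with FGF2 ranged from 47 to 87 with 1 library left out. Interactions close to 0 changed sign: Kctd12 was -0.0143 and Dusp8 -0.0107 with all 18 libraries, and Nrn1 was 0.0023 with library totals alone. With 1 library left out Kctd12 ranged from -0.0713 to 0.0892, Dusp8 from -0.0665 to 0.2166, Nrn1 from -0.1371 to 0.0691 and Asns from -0.1007 to 0.1496. Of 2515 values for 126 named genes, 2455 kept their direction and side of the threshold, 32 lost the call, 11 gained it and 17 changed sign. The causes were not tested.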
